A study of Bos taurus with 72 samples.

Results

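The subject here is a group of 101 genes whose transcripts in the blood of feedlot cattle were low at the close-out sampling and higher at both earlier samplings. Members were chosen from the measured values themselves. A gene was taken if its mean level over 66 libraries was at least 1 on the log2 CPM scale (the log2 of the read count scaled to library size, after TMM scaling and with a prior count of 2), and if its mean paired difference was -0.7 or less for close-out minus entry and for close-out minus pulled. In addition the mean pulled minus entry difference had to lie within 0.7 of 0. This rule took 101 of the 24616 genes in the table, of which 12655 passed the low-count filter and 10367 had the required mean level. Members were thus 0.974% of the genes at that level. The falls at close-out and the small pulled minus entry difference follow from the choice, so they are described and not tested.

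The same 24 male beef cattle gave whole blood at 3 stages that the labels call entry, pulled and close-out, with 24 libraries a stage, and only animals whose RNA was well preserved were sequenced. In feedlot practice close-out is the end of the feeding period, and pulled cattle are those taken out of the pen for a closer look; the labels give no treatment, breed, age or reason for the pull. The series is about bovine respiratory disease, but its labels give no diagnosis, and each animal served as its own control. Stage, age and time on feed cannot be told apart in these groups.

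Whole blood RNA is a mixture from neutrophils, lymphocytes, monocytes, platelets and young red cells. The blood of cattle is rich in lymphocytes, and the white cell mixture shifts with age, stress and infection. A lower transcript level in such bulk samples can mean fewer cells of a type or less RNA per cell, and these cannot be told apart here. The deposited table lists Ensembl identifiers with no gene names, and 0 of them matched the gene table at hand. Only 2 members are therefore printed by identifier, the roles of the members are not given, and the other 99 are described by their rank, counts and ranges. Cell type markers could not be looked up for the same reason, so the blood origin of the libraries was not checked against them.

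Animals 9 and 12 were left out of the rule. Over 100 genes chosen in the 22 other animals for differences between animals that recurred at all stages, libraries of the same animal correlated at 0.803 or more and libraries of different animals at 0.604 or less among 70 libraries (across genes, which are not independent replicates). The gap between these values follows in part from that choice of genes. For animal 9, the library that carries the pulled label correlated at -0.141 with its entry library and at 0.971 with the entry library of animal 11. For animal 12 the pulled and entry libraries correlated at -0.0435. Their entry and close-out libraries matched each other, at 0.83 for animal 9 and 0.951 for animal 12, and are used below. The stage differences of these animals did not enter the rule, but their libraries did enter the low-count filter and the TMM scaling, and with both computed over the 66 other libraries 97 of the 101 members were found again. Total counts of the 22 animals of the rule ran from 8.24 to 29.1 megareads per library. No member had a count of 0 in a close-out library, and the median count of the member with the fewest reads at close-out was 15.5.

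ENSBTAG00000014628 had the lowest mean of both close-out differences. At entry its level over 22 animals ran from 4.39 to 8.44 log2 CPM, with a median of 6.81. At pulled it ran from 4.72 to 9.20 with a median of 7.22, and at close-out from 1.12 to 5.75 with a median of 3.31. The ranges of the stages overlapped, because the highest close-out value (animal 20) lay above the lowest value at entry (animal 3) and the lowest at pulled (animal 17). In reads, the libraries held 257 to 4827 at entry, 362 to 11543 at pulled and 32 to 1320 at close-out. The mean paired difference was -3.19 ± 1.29 for close-out minus entry and -3.89 ± 1.40 for close-out minus pulled (SD, n = 22, log2 scale). The level was below entry in 22 of 22 animals and below pulled in 21.

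ENSBTAG00000034349 ranked second. Its level ran from 3.15 to 7.67 log2 CPM at entry (median 5.82), from 3.49 to 8.78 at pulled (median 6.32) and from 1.19 to 4.55 at close-out (median 2.63). It was the only one of the 101 members that lay below both earlier stages in all 22 animals. The mean paired difference was -3.10 ± 1.36 for close-out minus entry and -3.73 ± 1.55 for close-out minus pulled (SD, n = 22, log2 scale). Between entry and pulled the direction differed from animal to animal, with a mean difference of 0.64 and an SD of 2.08. The spread between animals was smaller at close-out, at an SD of 0.81 against 1.37 at entry and 1.28 at pulled.

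**Figure D1:**
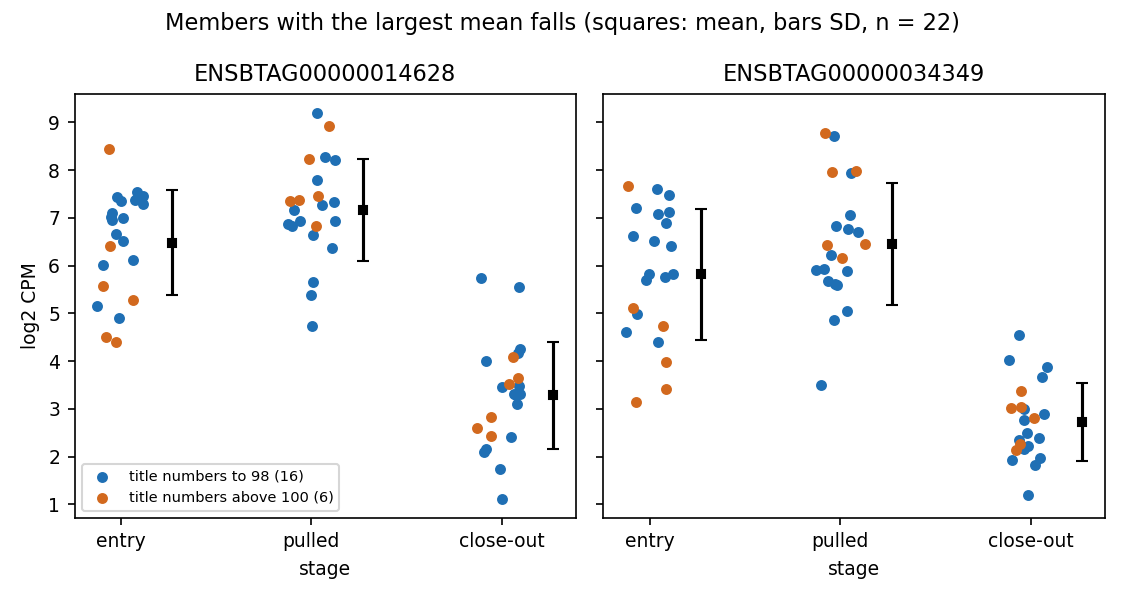
Level (log2 CPM, vertical axis) of the pair of members with the largest mean falls at entry, pulled and close-out, 1 point per animal (n = 22), with the mean and SD as black squares and bars. Blue points are the 16 animals with title numbers to 98, orange points the 6 with numbers above 100. The close-out points have a mean of 3.29 in the left panel and 2.72 in the right panel, against 5.82 or more at the earlier stages.

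Members ranked 3 to 10 by the mean of both falls came next. Their mean levels ran from 3.89 to 6.93 log2 CPM at entry, from 4.18 to 7.25 at pulled and from 1.80 to 4.61 at close-out. Close-out minus entry was between -3.50 and -2.09 and close-out minus pulled between -3.12 and -2.38. Each of these genes was below both earlier stages in 18 to 21 of the 22 animals. The third had the lowest close-out minus entry difference of all members, from 5.59 ± 2.30 at entry and 5.21 ± 1.48 at pulled to 2.09 ± 1.096 at close-out (SD, n = 22, log2 CPM). A difference of at least 4-fold (2 on the log2 scale) in both comparisons was seen in 10 members, and one of at least 2-fold in 58. Per member, 14 to 22 animals were below entry (median 19), 13 to 22 below pulled (median 20) and 9 to 22 below both (median 16).

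Over all 101 members the median difference was -1.22 for close-out minus entry and -1.29 for close-out minus pulled. The median over all 12655 filtered genes was -0.01 and 0.00. In the edgeR quasi-likelihood fit with the animal as a block, 100 members were lower at close-out than at entry and 94 lower than at pulled (adjusted p under 0.05). The background over all genes was 10.4% lower and 9.87% higher than at entry, 12.9% lower and 12.1% higher than at pulled, and 3.26% lower than at both. With library totals in place of TMM, the lower side of the calls over all genes went from 51.3% to 37.3% against entry and from 51.5% to 24.8% against pulled, and the members lower than at pulled from 94 to 84. Nothing is read from these counts, since the same differences chose the members. Nor did the stages separate for any member: in 0 of 101 did the highest close-out value lie below the lowest entry value, and in 0 below the lowest pulled value. This was not counted over all genes, so whether the members differ from other genes in this is not known, and nothing is read from it.

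Members just inside the limit were close to genes just outside it. The 3 nearest inside had close-out minus entry and close-out minus pulled differences of -1.095 and -0.71, of -0.71 and -1.40, and of -1.01 and -0.71. The 3 nearest outside had -0.69 and -1.27, -0.69 and -0.79, and -0.68 and -0.80.

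The members covered a wide span of abundance. Their mean levels ran from 1.11 to 10.96 log2 CPM with a median of 4.82, and 10 members were at 8 or more while 12 were under 2. Levels are not compared between genes here beyond this span, because they are not scaled by gene length. The most abundant member ranked 60 by its fall. It went from 11.08 ± 0.81 at entry and 11.59 ± 0.67 at pulled to 10.22 ± 0.51 at close-out (SD, n = 22, log2 CPM). Together the members took a median of 1.70% of all counts at entry (0.703% to 3.34%), 1.58% at pulled (0.687% to 4.05%) and 0.639% at close-out (0.49% to 1.27%). Close-out shares were thus low in most animals, with the upper end inside the range of the earlier stages.

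**Figure D2:**
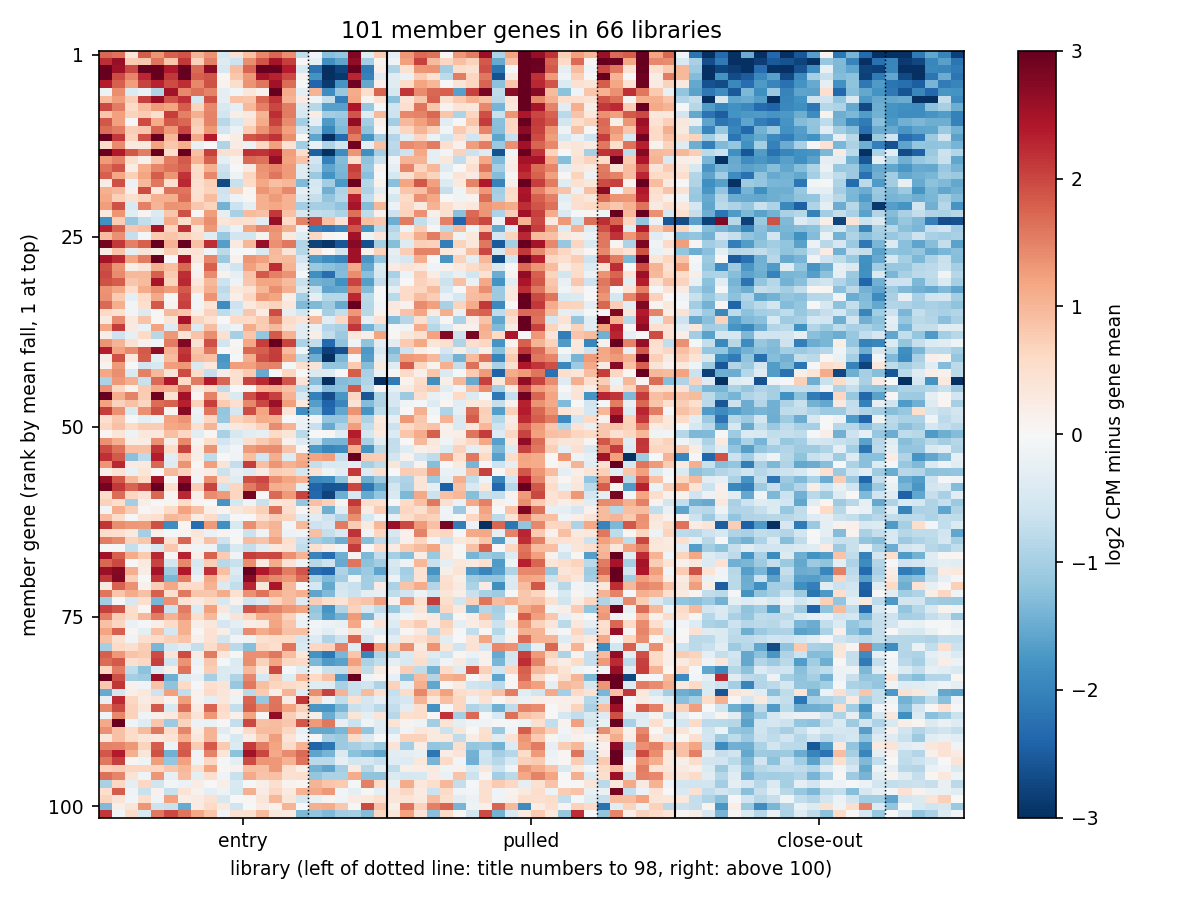
Level of each of the 101 members (rows, by rank of mean fall) in the 66 libraries (columns, grouped by stage), as log2 CPM minus the mean of the gene; the colour scale stops at 3 in either direction. Blue fills most of the close-out columns, while entry and pulled columns differ from library to library. Right of the dotted line at entry, 4 of the 6 animals had a member mean below the lowest of the 16. Animals 5 and 7 did not.

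The entry and close-out libraries of animals 9 and 12 gave the same measure in animals whose stage differences the rule did not use, though the filter and scaling did. In animal 9, 94 of the 101 members were lower at close-out than at entry, with a median difference of -0.94 on the log2 scale (from -3.79 to 1.04). In animal 12, 84 were lower, with a median of -0.47 (from -2.31 to 0.76). Among all genes at the same minimum level, 50.7% were lower in animal 9 and 48.1% in animal 12. In both animals together 80 members were lower, against a background of 22.1%. A fall of 0.7 or more in both was seen in 27 members, against a background of 0.695%. Most members varied together from animal to animal (given below), so the members counted are not independent observations. The library titles of animals 9 and 12 carry the numbers 26 and 41, on the same side as the animals with title numbers to 98. Animals with higher title numbers are therefore not covered by this check.

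Both printed members were among those lower in each animal. ENSBTAG00000014628 differed by -3.06 in animal 9 and by -1.90 in animal 12 (log2, close-out minus entry). ENSBTAG00000034349 differed by -2.69 in animal 9 and by -0.71 in animal 12. Of the first 25 members, 23 were lower in both animals. With 2 animals there is no test over samples, and close-out minus pulled is not given for them because their pulled libraries are in doubt. The 61 genes that meet the mirror image of the rule (higher at close-out than at both other stages) went the other way in these animals, with 53 higher in both and 1 lower in both. The share of all genes higher in both is not given here, so the counts of mirror genes are a description.

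**Figure D3:**
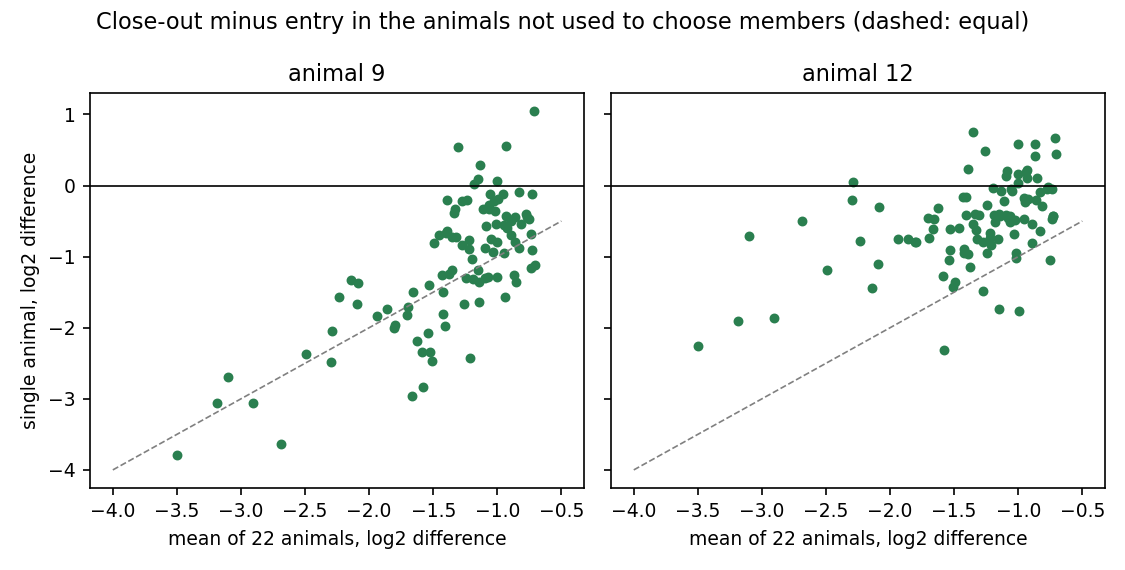
Close-out minus entry (log2 difference) of each member in animal 9 (left) and animal 12 (right) against the mean of the 22 animals of the rule, 1 point per member; the dashed line marks equal values. Most points lie below 0 (94 and 84 of 101), and those of animal 12 lie mostly above the dashed line, a smaller fall than in the 22 animals.

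Animals reached the low close-out level from different sides. Averaged over the 101 members, the level was 5.26 ± 0.83 log2 CPM in entry libraries, 5.34 ± 0.71 in pulled and 3.92 ± 0.36 in close-out libraries (SD, n = 22). In 15 animals this mean was at least 0.7 lower at close-out than at each earlier stage. In 3 animals (1, 16 and 17) it was that much lower than at entry only, and in 4 animals (2, 3, 4 and 6) than at pulled only. Close-out minus entry was -0.156, 0, -0.075 and 0.105 in animals 2, 3, 4 and 6. The close-out mean was below the entry mean in 20 of the 22 animals. No animal showed neither fall. Animal 16 was the 1 animal whose close-out mean (4.93) was above its pulled mean (4.42), and its close-out value was the highest of the 22. Animal 17 had the lowest pulled mean, at 3.90 against 3.72 at close-out.

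The similar means at entry and pulled did not come from animals that stayed level. The pulled mean was above the entry mean in 11 animals and below it in the other 11. Differences ran from -1.92 in animal 17 to 2.78 in animal 3. The description of these genes as low only at close-out therefore holds for the average over 22 animals and not for each of them.

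These differences moved with the number in the library titles. Library titles carry a number that is above 100 for 6 animals (2 to 7) and at most 98 for the other 16. Over all genes these sets stood apart at entry, a division that was noticed in these libraries and is no group of the study. At entry the member mean was 4.42 ± 0.87 in the 6 (SD, n = 6) and 5.58 ± 0.56 in the 16 (SD, n = 16), and 4 of the 6 lay below the lowest of the 16. Animals 5 (6.03) and 7 (4.70) lay within the range of the 16. At pulled the means stood in the other order, with 5.74 ± 0.65 in the 6 and 5.19 ± 0.68 in the 16, and the ranges overlapped. At close-out the sets were at 3.93 ± 0.19 and 3.91 ± 0.41. The TMM factor moved with the sets at entry, at 0.806 ± 0.097 in the 6 and 1.13 ± 0.086 in the 16, while total counts were 17.3 ± 1.01 and 18.1 ± 5.27 megareads. The part of this scaling in the result was not tested beyond the alternative scaling given with the next comparison.

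**Figure D4:**
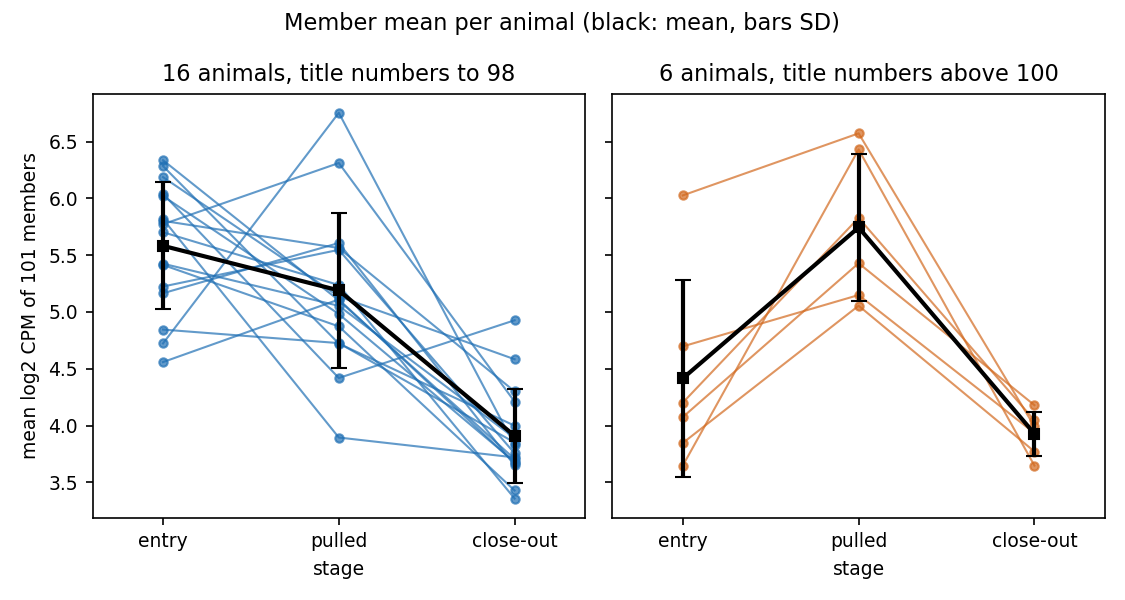
Mean level of the 101 members (log2 CPM, vertical axis) at the 3 stages, 1 line per animal, for the 16 animals with title numbers to 98 (left) and the 6 with numbers above 100 (right); black squares and bars give the mean and SD of each set. Both sets end near 3.9 at close-out, the 16 coming from 5.58 at entry and 5.19 at pulled, and the 6 from 4.42 and 5.74.

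The sets were compared within each stage in edgeR over all 12655 genes. Since the division was noticed at entry in these libraries, and the entry values of the same animals (16 of 22 from 1 set) chose the members, the counts at entry and their direction are a description. At entry 46 members were lower and 6 higher in the 6 animals, with a median log2 difference of -0.90 over the members and -0.03 over all genes. The background was 36.4% lower and 34.2% higher, so that the 52 members past the threshold (adjusted p under 0.05) were no larger a share than that of all genes. With scaling by library totals 72 members were lower and 0 higher, with a median of -1.52 over the members and -0.52 over all genes, and the lower side of all calls went from 51.6% to 77.7%.

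At pulled 13 members were higher in the 6 animals and 0 lower (edgeR adjusted p under 0.05), against 6.23% and 1.56% of all genes. The pulled values of the same animals also entered the rule, so this count and its direction are a description. An unadjusted p under 0.05 was found for 27 members in edgeR, and for 3587 of all 12655 genes. With library totals 16 were higher, and the lower side of the calls over all genes went from 20.1% to 6.8%. The count of 13 was 16 in DESeq2, 0 in limma-voom and 0 in edgeR with all 24 animals. It was 0 without animal 1, 3, 5, 6, 14 or 18, from 5 to 8 without animal 8, 10, 15, 16, 17, 22 or 24, and 25 and 29 without animals 4 and 19, so the count depends on which animals are included. At close-out 0 members differed in edgeR, DESeq2 or limma-voom, where the background at the same adjusted threshold was 0% lower and 0.0395% higher. An unadjusted p under 0.05 in edgeR was found for 11 members and for 1195 of all 12655 genes. The sets are small, and a p that misses the threshold does not show that the members were at the same level.

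Pulled minus entry had opposite signs in the sets for most members. The rule held the mean over both sets within 0.7 of 0, so the signs in the sets, and the direction of the difference between them, are partly fixed by the choice and are given as a description. The difference was negative in the 16 and positive in the 6 for 71 of the 101, and 30 passed 0.7 in both of these directions. The median was -0.33 in the 16 and 1.5 in the 6 (log2 scale). For ENSBTAG00000034349 the values were -0.11 in the 16 and 2.62 in the 6, with a fitted difference between the sets of 2.59 (SE 0.70). For ENSBTAG00000014628 they were 0.24 and 1.93, with a fitted difference of 1.55 (SE 0.63). In edgeR 67 members had a more positive and 5 a more negative value in the 6 animals (adjusted p under 0.05). The background was 36.8% and 33.7% of all genes, so the 72 members called were near the share of all genes, and nothing is read from their direction. With library totals 79 members were more positive and 1 more negative, and the lower side of the calls over all genes went from 47.8% to 21.3%.

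For close-out minus entry, where the 16 animals weigh most in the rule, all 101 members were below 0 in the 16 animals, 94 of them at -0.7 or less, with a median of -1.64. In the 6 animals 65 were below 0, 42 of them at -0.7 or less, and 36 were above 0, with a median of -0.45. In edgeR 55 members had a more positive and 8 a more negative value in the 6 (adjusted p under 0.05), against a background of 35.3% and 30.8%. The same difference chose the members, mostly through the 16 animals, so nothing is read from this direction either. With library totals the members' counts were 76 and 0, and the lower side of all calls went from 46.6% to 14.5%. ENSBTAG00000014628 was at -3.42 in the 16 and -2.58 in the 6, with a fitted difference of 0.82 (SE 0.64). ENSBTAG00000034349 was at -3.54 and -1.91, with a fitted difference of 1.67 (SE 0.70).

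Close-out minus pulled had one direction in both sets. All 101 members were below 0 in the 16 and in the 6, and the median was -1.17 and -1.69. The fall reached 0.7 in 88 members in the 16 and in 97 in the 6. The mean of this difference over both sets chose the members, so its direction in each set is largely fixed by the choice. These counts are a description, with no share of all genes given beside them, and nothing is read from the shared direction. In the test of the difference 0 members passed in edgeR and 0 in limma-voom, and the background at the same adjusted threshold was 0% in each direction. An unadjusted p under 0.05 in edgeR was found for 1 member and for 408 of all 12655 genes. Both close-out falls reached 0.7 within the 16 for 81 members, within the 6 for 40 and within each set for 33. The whole rule, with its limit on pulled minus entry, held for 60 members within the 16, for 13 within the 6 and for 7 within each.

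**Figure D5:**
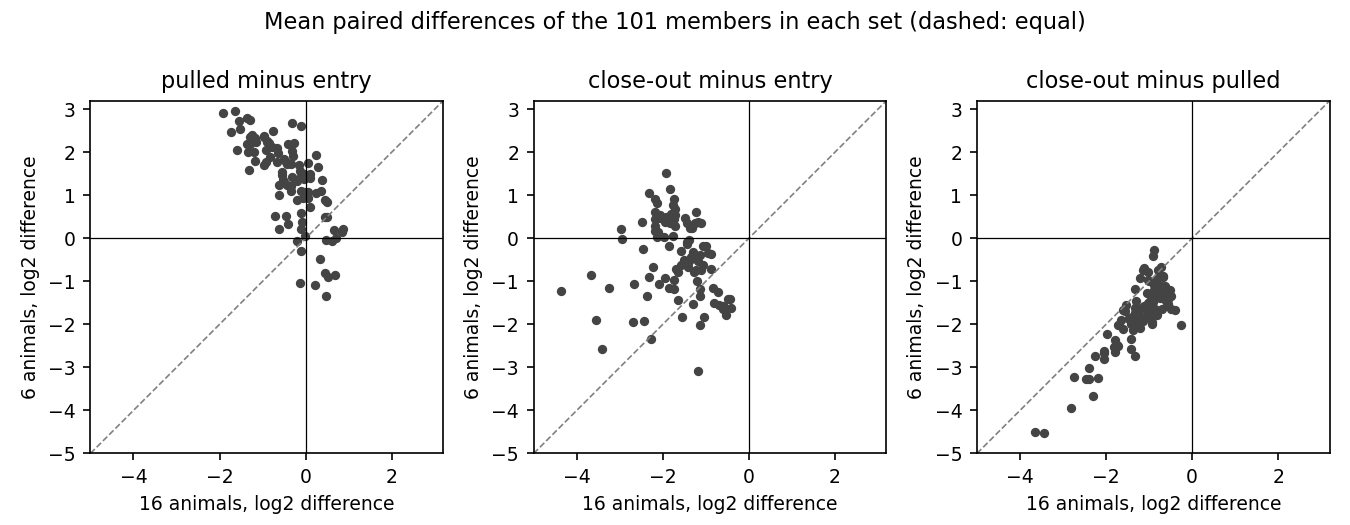
Mean paired log2 differences of the 101 members in the 16 animals (horizontal axis) and the 6 animals (vertical axis) for each pair of stages, 1 point per member; the dashed line marks equal values. Pulled minus entry points lie mostly in the upper left (71 of 101), close-out minus entry points spread over both sides of 0 for the 6 animals, and close-out minus pulled points are all below 0 on both axes.

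Animals differed less in the members at close-out than before. The median SD over 22 animals was 1.06 log2 CPM in entry libraries, 1.04 in pulled and 0.65 in close-out libraries. Over all genes with a mean of at least 1 the medians were 0.51, 0.41 and 0.38. The SD was smaller at close-out than at both earlier stages in 89 members, or 88.1%, against 53.4% of all those genes and 63.9% of the 61 mirror genes. Within the 16 animals it was so in 67 members, against 23.1% of all genes. The median SD there was 0.82, 0.96 and 0.69 for the members and 0.32, 0.36 and 0.39 for all genes. Within the 16 the median over all genes was thus not smaller at close-out. These shares are a description, since they come from the libraries that chose the members.

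Most members varied together from animal to animal. Each member was correlated over the 22 animals with the mean of the other 100 members at the same stage (Pearson's r, given as a description, because all members share libraries and scaling). The median r was 0.82 among entry, 0.77 among pulled and 0.66 among close-out libraries. It was at least 0.5 in 79, 83 and 63 members, and below 0 in 6, 6 and 14. The same r was not computed for genes outside the members, so these counts do not set the members apart from other genes. Within the 16 animals alone the medians were 0.77, 0.81 and 0.69. ENSBTAG00000034349 followed the others closely, at 0.97, 0.97 and 0.94 over the 22 animals. ENSBTAG00000014628 did so at entry and pulled (0.88 and 0.87) and less at close-out (0.46). All 63 members with r of at least 0.5 at close-out also reached it at entry and pulled.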

How the data were processed

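RNA from PAXgene tubes was made into poly-A selected libraries, per the labels' protocols. TopHat2, HTSeq and the build UMD3.1 are named in the submitters' processing notes, with versions, annotation release and strand setting not given in the sources used here. Each value is a raw read count per gene as deposited by the authors, with 0 columns of no sample. Reads shared by near-identical or overlapping genes cannot be traced.

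Filtering by edgeR 4.0.16 filterByExpr and TMM scaling used all 72 libraries in R 4.3.3. Members and lists were chosen with earlier results of these data known. The stages were compared in 66 libraries by an edgeR quasi-likelihood fit with the animal as a block, since the labels give the same animals at each stage. The sets were compared at each stage with no block, and their stage changes with a stage by set term. Adjusted p-values are Benjamini-Hochberg over 12655 genes at 0.05. SE is the absolute log2 fold change over the square root of F. The fits were tested on simulated data, which held known changes but no lasting differences between animals. Their behaviour under such differences was not tested. DESeq2 1.42.0, limma-voom (limma 3.58.1) and other scalings and filters were tried. The rule for named genes took the 25 largest mean falls and the genes nearest the limit; its condition on symbols and the 30 fixed gene lists could not be used without gene names.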

Additional observations from a re-analysis of the deposited data

Results flagged for a closer look

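In 72 of the 101 members pulled minus entry was not the same in the 6 animals whose library titles carry numbers over 100 as in the remaining 16, and in 63 members close-out minus entry was not (edgeR, adjusted p under 0.05 for the difference between the sets itself). The same tests called 36.8% of all genes as higher and 33.7% as lower for pulled minus entry, and 35.3% and 30.8% for close-out minus entry, so the members' total shares were near those of all genes. The sets were noticed at entry in these libraries, and both stage differences also chose the members, so the counts are a description. For the sets the labels give no batch or date.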

How the results depend on the processing

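The number of genes that meet the rule was 101 with RLE scaling, 90 with library totals only (83 of them members), 103 with a prior count of 0.5, 96 with all 24 animals (90 members), 83 with medians over animals (74 members) and 101 with filter and scaling over the 66 libraries (97 members), and it ran from 88 to 116 when single animals were left out. In the 16 animals alone 74 genes met it (60 members), and in the 6 alone 104 (13 members). All 101 members kept both falls below 0 in the stage fits under each scaling. Without the replicate block 2331 genes passed for close-out minus entry and 2747 for close-out minus pulled, against 2566 and 3167 with it. With library totals the median of all genes for close-out minus pulled went from 0.00 to 0.14 and for pulled minus entry from -0.03 to -0.17. Members that differed between the sets at pulled went from 13 to 0 in limma-voom and to 0 with all 24 animals. Leaving out single animals from the comparisons of the sets, and scaling over the 66 libraries alone, were chosen after seeing the data. That count then ran from 0 to 29; the cause was not tested. At close-out it was 1 without animal 1 and 0 without each other animal. At entry it ran from 47 to 78, the highest without animal 5. The lowest library total of 8.24 megareads limits the members of low level most.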
